A study of Mus musculus with 9 samples.

Results

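The cytoplasm of MTR4-null mouse oocytes was compared with the cytoplasm of wild-type (WT) oocytes, across the 12548 genes of 23235 that reached an FPKM of at least 1 in either cytoplasm. FPKM divides sequenced fragments by the length of the transcript and by the mapped total of the library, so it is a share of a library and not an amount per cell. Both groups were taken on day 21. The WT group carries the genotype WT and the other group the genotype Mtr4-null, and the labels name neither the allele, the strain nor the way the null was made. The nucleus of each oocyte was removed by micromanipulation, and 10 cytoplasms were pooled for a sample of total RNA from which ribosomal RNA was depleted. The labels list 2 libraries for each cytoplasm group, 3 for WT nuclei and 2 for MTR4-null nuclei, but the deposited table holds 1 value per gene and group. No spread between libraries can therefore be given for any value below, the depth behind each value is unknown, and every difference is a difference between deposited columns with no replicate check. Less RNA per cytoplasm and fewer intact cytoplasms per sample cannot be told apart in such values.

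MTR4 is an RNA helicase of the nucleus that unwinds transcripts and feeds them to the RNA exosome, a complex that degrades RNA from its 3′ end. It is known for trimming the 3′ ends of small nucleolar and other structured RNAs and for clearing short-lived noncoding transcripts, which it reaches as part of several adaptor complexes. A growing oocyte stores mRNA and organelles in its cytoplasm for the later embryo. The cytoplasmic sample holds what has left the nucleus or was released into it, and total RNA libraries also record RNAs without a poly(A) tail.

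The gene for MTR4, listed under its older symbol Skiv2l2, stood at 21.6 FPKM in the WT cytoplasm and 2.51 FPKM in the MTR4-null cytoplasm, a log2 difference of -2.69. All differences are log2((MTR4-null + 1)/(WT + 1)), a scale on which differences of weakly expressed genes come out too small. Each was also taken relative to the median of all genes kept, which was -0.39, and such values are called centred.

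The strongest pattern of the cytoplasmic columns was carried by short structured RNAs that work in the nucleus or nucleolus, and their sequences are given first. Rpph1, the RNA subunit of ribonuclease P, which trims the 5′ ends of tRNAs, and Rprl3, a near copy of it, are shown together because they behaved differently in the same columns. Of 279 aligned positions 246 were identical (88.2%), and capitals mark the bases not matched in the other sequence. Rpph1 lies at chr14:50807449-50807767 and Rprl3 at chr8:3803069-3803358, both on the minus strand, and the first 290 bases of Rpph1 are shown. These and the next RNA sequences are GENCODE M21 transcripts of the build GRCm38, written as DNA, whereas the deposited values were made on the build mm9.
Rpph1: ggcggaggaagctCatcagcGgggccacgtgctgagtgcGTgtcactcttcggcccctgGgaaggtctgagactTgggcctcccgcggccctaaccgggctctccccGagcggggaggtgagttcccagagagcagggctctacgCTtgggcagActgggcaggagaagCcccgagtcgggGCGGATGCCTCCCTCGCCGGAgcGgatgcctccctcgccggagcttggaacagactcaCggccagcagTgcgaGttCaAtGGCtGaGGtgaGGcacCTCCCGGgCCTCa
Rprl3: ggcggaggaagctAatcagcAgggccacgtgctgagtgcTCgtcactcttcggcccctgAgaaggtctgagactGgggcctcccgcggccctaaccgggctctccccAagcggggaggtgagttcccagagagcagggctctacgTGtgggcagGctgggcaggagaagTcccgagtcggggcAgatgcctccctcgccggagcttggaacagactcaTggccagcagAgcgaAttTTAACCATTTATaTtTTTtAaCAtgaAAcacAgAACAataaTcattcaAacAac

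Rmrp is the RNA of ribonuclease MRP, which cuts ribosomal RNA precursors, and it shares most protein subunits with ribonuclease P. It lies at chr4:43492788-43493058 on the minus strand, and its longest run of letters shared with Rpph1, in capitals, was 9 bases.
Rmrp: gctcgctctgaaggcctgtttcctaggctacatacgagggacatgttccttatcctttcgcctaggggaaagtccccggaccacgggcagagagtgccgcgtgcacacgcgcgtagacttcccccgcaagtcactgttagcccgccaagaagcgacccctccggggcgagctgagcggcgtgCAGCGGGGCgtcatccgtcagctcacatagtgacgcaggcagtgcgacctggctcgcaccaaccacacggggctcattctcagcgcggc

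Terc is the RNA template of telomerase (chr3:96414437-96414859, minus strand). Its first 100 bases are shown, with the letters of the telomere template in capitals. Terc ends like the box H/ACA small nucleolar RNAs, such as Snora78 (chr17:24719676-24719803, minus strand), whose ACA box near the 3′ end is in capitals. The letters ACA stand exactly 3 bases before the end in 19.3% of the 1558 small nucleolar and Cajal body transcripts of that annotation.
Terc: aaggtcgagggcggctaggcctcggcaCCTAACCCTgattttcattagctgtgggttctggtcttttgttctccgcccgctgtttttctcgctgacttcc
Snora78: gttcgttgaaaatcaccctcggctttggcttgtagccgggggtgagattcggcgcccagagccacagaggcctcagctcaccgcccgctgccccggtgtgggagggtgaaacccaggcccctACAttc

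Snord71 (chr8:109839295-109839379, plus strand) is of the box C/D class, which guides methylation of ribosomal RNA, and Scarna6 (chr1:87784556-87784820, plus strand) guides the modification of spliceosomal RNAs in Cajal bodies. Capitals mark the last CTGA, the letters of the D box, and in Scarna6 also the first TGATGA, letters of the C box. CTGA is found in 79.3% and TGATGA in 26.5% of the same transcripts on the printed strand, so the letters alone single out none of them.
Snord71: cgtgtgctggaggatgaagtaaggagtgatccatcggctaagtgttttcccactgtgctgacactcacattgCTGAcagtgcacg
Scarna6: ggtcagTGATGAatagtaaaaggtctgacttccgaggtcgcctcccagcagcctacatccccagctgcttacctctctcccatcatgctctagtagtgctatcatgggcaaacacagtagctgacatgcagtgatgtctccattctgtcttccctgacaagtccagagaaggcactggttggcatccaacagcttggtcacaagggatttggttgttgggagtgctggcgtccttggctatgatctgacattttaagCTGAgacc

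Rmrp had 115 FPKM in the WT cytoplasm against 11312 FPKM in the MTR4-null cytoplasm. In the nuclear columns the same RNA was at 2733 FPKM in WT against 11013 FPKM in MTR4-null, so both MTR4-null columns stood near the same level and the WT cytoplasm stood far below them. The log2 difference in the cytoplasm was 6.60. Rpph1 had 156 FPKM in the WT cytoplasm and 8822 FPKM in the MTR4-null cytoplasm, a log2 difference of 5.81, against 11847 and 12556 FPKM in the nuclei. The nuclear columns of Rpph1 were thus close to each other, and the cytoplasmic columns far apart. Its copy Rprl3 had 58.9 FPKM in the WT cytoplasm and 61.7 FPKM in the MTR4-null cytoplasm, with 7829 and 1066 FPKM in the nuclei. Rprl2, another copy, was at 2.39 and 0.443 FPKM in the cytoplasms. Fragments that match Rpph1 and its copies alike can be assigned to any of them, and the sources used here do not say how the authors' counting split them, which leaves the division between these genes uncertain.

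Terc stood at 1.32 FPKM in the WT cytoplasm against 83.5 FPKM in the MTR4-null cytoplasm (log2 difference 5.19), with 455 and 234 FPKM in the nuclei. The RNAs of the minor spliceosome, which removes a rare class of introns, were Rnu12 at 9.87 and 1099.5 FPKM in the cytoplasms and Rnu11, which was listed at 0 in the WT cytoplasm and had 366 FPKM in the MTR4-null cytoplasm. Vaultrc5, the RNA of vault particles, is a cytoplasmic particle RNA and was at 11.05 and 63.3 FPKM, a log2 difference of 2.42. Of the 8 measured members of this list of structured RNAs, 6 were higher by 2-fold or more in the MTR4-null cytoplasm, 1 was lower by 2-fold or more (Rprl2) and 1 lay between (Rprl3). A kept gene listed at 0 in 1 column passes 2-fold because 1 is added to both values. The call of Rnu11 was thus fixed by the limit of 1 FPKM. The median log2 difference of the list was 5.50, or 5.19 over the 7 members above 0 in both columns. Over all genes kept, 17.0% were higher by 2-fold or more and 24.3% lower by 2-fold or more. The list holds 25 RNAs, of which 11 are in the deposited table, and Rprl1, Bc1 and Rnu73b were at 0 in both cytoplasms.

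**Figure D1:**
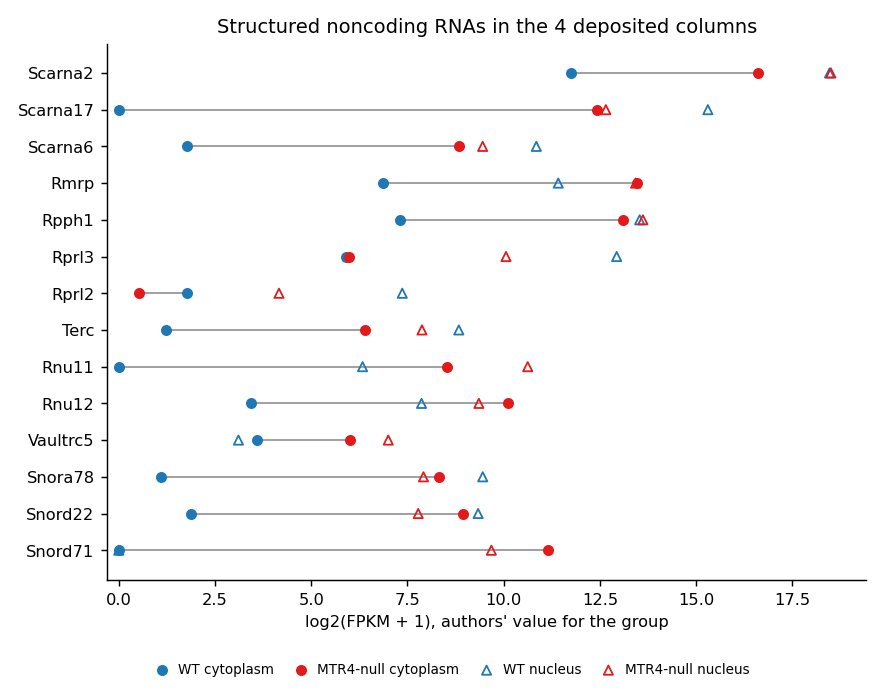
Levels of 14 structured noncoding RNAs on the log2(FPKM + 1) scale (x axis) in the 4 deposited columns, with circles for cytoplasm, triangles for nucleus, blue for WT and red for MTR4-null, and a grey line joining the cytoplasms. The WT cytoplasm is the lowest of the 4 columns, or shares the lowest place at 0, for all RNAs shown but Rprl2, whose lowest column is the MTR4-null cytoplasm, and Vaultrc5, whose lowest column is the WT nucleus.

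Small Cajal body RNAs showed the same direction. Scarna2 stood at 3428 FPKM in the WT cytoplasm against 100235 FPKM in the MTR4-null cytoplasm (log2 difference 4.87), while its nuclear values were 361725 and 370466 FPKM. It was the highest value of the MTR4-null cytoplasm. Scarna6 was at 2.44 and 458 FPKM in the cytoplasms and at 1842 and 700.1 FPKM in the nuclei, Scarna13 at 4.23 and 284 FPKM in the cytoplasms. Scarna17, Scarna3a and Scarna3b were listed at 0 in the WT cytoplasm and had 5452, 5.99 and 142 FPKM in the MTR4-null cytoplasm. The exception was Scarna10, which had 42.7 FPKM in the WT cytoplasm and was listed at 0 in MTR4-null. In all, 6 of the 7 measured symbols were higher by 2-fold or more and 1 lower by 2-fold or more. The calls of Scarna17, Scarna3a, Scarna3b and Scarna10, each listed at 0 in 1 column, were fixed by the limit in the same way. Together the 7 symbols came to 3477 FPKM in the WT cytoplasm against 106577 FPKM in MTR4-null, most of it Scarna2 in both. In the nuclei the direction was mostly the other way, with 2 of the 7 higher by 2-fold or more and 4 lower by 2-fold or more.

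Of 105 small nucleolar RNA symbols in the table, 42 were measured in the cytoplasm, 41 of them higher by 2-fold or more in MTR4-null and 1 lower by 2-fold or more, Snora41, with 4.19 FPKM in WT and listed at 0 in MTR4-null. For 31 of the 42 the WT cytoplasm was listed at 0, which may stand for a low abundance or for a failed estimate, so their size of difference cannot be given. These 31 calls, and that of Snora41, were also fixed by the limit of 1 FPKM. Only the 10 symbols above 0 in both columns bear on the direction. Over the 10 symbols above 0 in both columns the median log2 difference was 4.66. Snora78 stood at 1.13 FPKM in the WT cytoplasm against 317 FPKM in the MTR4-null cytoplasm, and Snord22 at 2.67 and 494 FPKM. Their nuclear values were lower in MTR4-null than in WT, at 701 and 241 FPKM for Snora78 and 645 and 219 FPKM for Snord22. The class as a whole was divided in the nucleus. Of the 42 symbols 18 were higher by 2-fold or more there and 15 lower, with a median log2 difference of -0.06. Snord71 was listed at 0 in both WT columns and had 2266 FPKM in the MTR4-null cytoplasm and 819 FPKM in the MTR4-null nucleus. The summed level of all 105 symbols was 240.2 FPKM in the WT cytoplasm and 11506 FPKM in the MTR4-null cytoplasm. Snora78 and Snord71, of 128 and 85 bases, are shorter than the cDNA fragments of 300 bp or more selected for the libraries. So are Scarna6, Rmrp and Rprl3, of 265, 271 and 290 bases. For such short transcripts few fragments make a large FPKM. Together, genes with small RNA symbols made up 4.01% of the FPKM sum of the WT cytoplasm, 34.3% of the MTR4-null cytoplasm, 55.0% of the WT nucleus and 50.6% of the MTR4-null nucleus. Scarna2 alone made up most of every share but the first, with 100235 FPKM in the MTR4-null cytoplasm. Most of the WT cytoplasm's share came from microRNA symbols, at 12992 FPKM.

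Host transcripts of small nucleolar RNAs, which carry them in introns, were higher to a lesser degree. Of 9 measured Snhg genes 5 were higher by 2-fold or more, 0 lower by 2-fold or more, and the median log2 difference was 1.14. Snhg3 stood at 0.728 FPKM in the WT cytoplasm against 25.6 FPKM in the MTR4-null cytoplasm, with 2.61 and 25.3 FPKM in the nuclei. Snhg1 had 13.1 and 21.4 FPKM and Snhg6 8.77 and 10.7 FPKM in the cytoplasms, differences under 2-fold. Of the long RNAs known to be held in the nucleus, Malat1, a nuclear speckle RNA, stood at 8.63 FPKM in the WT cytoplasm against 69.6 FPKM in the MTR4-null cytoplasm, against 181 and 173 FPKM in the nuclei. Kcnq1ot1, an imprinted antisense RNA, was at 0.110 and 2.04 FPKM in the cytoplasms and 16.05 and 6.27 FPKM in the nuclei. Of 6 measured nuclear RNAs 3 were higher by 2-fold or more (Malat1, Kcnq1ot1 and Snhg11), 0 lower by 2-fold or more, and Meg3, Airn and Rian lay between. The summed level of all 11 listed nuclear RNAs, measured or not, was 14.4 FPKM in the WT cytoplasm and 80.4 FPKM in the MTR4-null cytoplasm, most of it Malat1. Export of such RNAs, the release of nuclear contents before or during micromanipulation and other differences between the samples cannot be told apart in these columns.

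Loci of microRNAs went in both directions. Of 60 measured microRNA symbols 36 were higher by 2-fold or more and 18 lower by 2-fold or more in the MTR4-null cytoplasm. Of the 60, 21 were listed at 0 in WT only and 9 in MTR4-null only, and these calls were fixed by the limit of 1 FPKM. The median log2 difference was 0.65 over the 30 above 0 in both columns. A mature microRNA is far shorter than the selected cDNA, so these values belong to fragments over the locus, a precursor or an overlapping gene, and not to the mature RNA. Mir22 stood at 911 FPKM in the WT cytoplasm against 14.7 FPKM in the MTR4-null cytoplasm, and at 21.6 and 413 FPKM in the nuclei. The cytoplasmic and the nuclear difference had opposite signs. Mir678 stood at 304 FPKM in the WT cytoplasm against near 0 in the other 3 columns, whereas Mir5131 was near 0 in both WT columns and at 3528 FPKM in the MTR4-null cytoplasm. These 3 loci, chosen after their values were seen, are shown by their mature RefSeq sequences (GRCm38.p6) with the seed, bases 2 to 8, in capitals. None of the 4 seeds is shared between them. The arms of Mir22 lie at chr11:75463734-75463755 and chr11:75463772-75463793 (plus strand), miR-5131 at chr14:45657972-45657994 and miR-678 at chr10:76207333-76207354 (both minus strand).
mmu-miR-22-5p: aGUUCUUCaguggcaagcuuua
mmu-miR-22-3p: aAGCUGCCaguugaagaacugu
mmu-miR-5131: cGGCGCCCcacggagccccgagc
mmu-miR-678: gUCUCGGUgcaaggacuggagg

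Across all genes kept, 2135 were higher by 2-fold or more and 3047 lower by 2-fold or more in the MTR4-null cytoplasm, and 7366 lay between. The quartiles of the log2 difference were -0.98 and 0.54. After centring, 3002 genes (23.9%) were higher and 1369 (10.9%) lower, so the share of higher genes among those past 2-fold was 41.2% as deposited and 68.7% centred. The direction of the majority therefore depends on the scale, and both counts are given for the gene lists below. The all-gene shares to set beside them are 17.0% higher and 24.3% lower as deposited, and 23.9% higher and 10.9% lower centred. The column sums were close, at 416740 FPKM for WT against 433013 FPKM for MTR4-null, with a larger part taken by small RNAs in MTR4-null. In WT 11023 genes had 1 FPKM or more, and in MTR4-null 11700. Of 1525 genes that reached it in MTR4-null only, 338 reached 5 FPKM and 171 were listed at 0 in WT. Of 848 that reached it in WT only, 86 reached 5 FPKM and 24 were listed at 0 in MTR4-null. At the limit of 1 FPKM, Klk14 (1.0006 FPKM in WT, 0.0179 in MTR4-null) and Oaz3 (1.003 and 0.641) were the last kept, and Pthlh (0.999 and 0.324) and Cd3d (0.0602 and 0.998) the first left out.

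**Figure D2:**
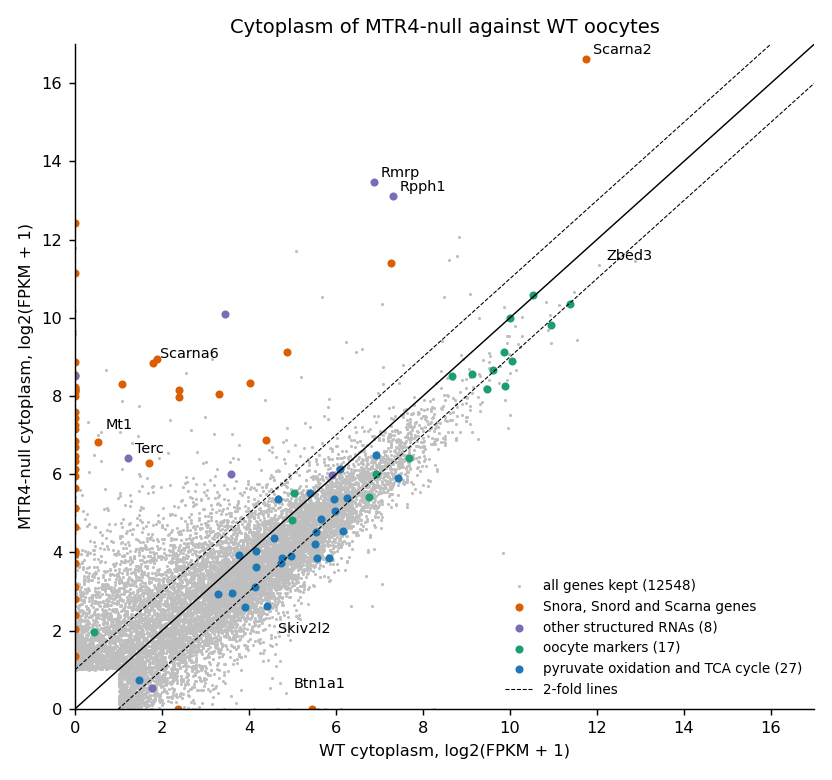
Each point is 1 of the 12548 genes, with its level on the log2(FPKM + 1) scale in the WT cytoplasm (x axis) and the MTR4-null cytoplasm (y axis), equality as a solid line and 2-fold differences as dashed lines. Most structured RNAs lie far above the line, many of them at 0 on the WT axis, while most oocyte markers and genes of the tricarboxylic acid cycle lie on or under it.

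The nuclear columns give the same genes side by side. In the nucleus 2944 of the 12548 genes (23.5%) were higher by 2-fold or more and 1192 (9.50%) lower by 2-fold or more in MTR4-null, with a median log2 difference of 0.24. The genes higher in both compartments numbered 1368, which is 64.1% of the cytoplasmic list and 46.5% of the nuclear list. Those lower in both numbered 723, or 23.7% of the cytoplasmic and 60.7% of the nuclear list. After centring each compartment on its own median, 2284 of the 12548 genes were higher by 2-fold or more and 1743 lower in the nucleus. On that scale 1528 genes were higher in both (50.9% of the cytoplasmic and 66.9% of the nuclear list) and 704 lower in both (51.4% and 40.4%). As deposited, opposite directions were rare, with 105 genes higher in the cytoplasm and lower in the nucleus, and 71 with the reverse. Within the MTR4-null genotype, cytoplasm and nucleus were within 2-fold for 1713 of the 2135 genes higher in the cytoplasm (80.2%), for 2436 of the 3047 lower ones (79.9%) and for 10387 of all 12548 (82.8%).

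By RefSeq biotype, which was found for 12447 genes, 11649 protein-coding genes had a median log2 difference of -0.44, with 1722 (14.8%) higher by 2-fold or more and 2917 (25.04%) lower by 2-fold or more as deposited, and 2510 higher and 1300 lower centred. Long noncoding RNA genes stood on the other side of 0. Of 556 such genes 254 (45.7%) were higher by 2-fold or more and 75 (13.5%) lower, the median was 0.86, and after centring 308 were higher and 33 lower. Transcribed pseudogenes numbered 113, of which 45 were higher and 17 lower as deposited, with a median of 0.60, and 56 higher and 7 lower centred. Among gene models known only by a clone or catalogue name, A330069E16Rik stood at 1.11 FPKM in the WT cytoplasm against 235 FPKM in MTR4-null, AI506816 at 1.78 and 215 FPKM, 4930405P13Rik at 1.05 and 134 FPKM, and 4930470H14Rik at 1.72 and 125 FPKM. At the other end C130074G19Rik had 102 and 9.50 FPKM and 2410141K09Rik 40.2 and 5.40 FPKM. Riken models as a group were higher more often than lower, 324 against 166 of 995 as deposited, and 415 against 78 centred. Gm models had 90 higher and 82 lower of 316 as deposited, with a median of -0.07, and 114 higher and 37 lower centred.

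Among coding genes the difference followed the number of exons. The 10766 genes matched to GENCODE M21, histone genes and gene models left out, were grouped by the exons of their longest coding transcript. The 210 genes with 1 exon had a median log2 difference of 0.96, with 48.1% higher by 2-fold or more and 6.67% lower by 2-fold or more. The 470 genes with 2 exons had a median of 0.23, the 640 with 3 exons -0.05, the 1542 with 4 to 5 exons -0.25, the 3218 with 6 to 10 exons -0.44 and the 3175 with 11 to 20 exons -0.59. At the far end, the 1511 genes with 21 or more exons had a median of -0.70, with 4.96% higher and 33.9% lower. These shares are as deposited. After centring, 142 of the 1511 were higher and 219 lower, and of the 3175 with 11 to 20 exons 469 were higher and 386 lower. The nuclear columns had the same order on a higher level, from 1.01 for 1 exon to -0.03 for 21 or more. Genes over short stretches of the genome also stood higher: across 5 equal groups by genomic span the median went from -0.03 to -0.75, and the share lower by 2-fold or more from 15.0% to 37.3%. Transcript length gave a narrow range, from -0.44 in the shortest to -0.55 in the longest of 5 groups.

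Base composition and level moved with exon number, and the exon order was present inside groups of each. Across 5 equal groups by GC content the median went from -0.64 in the lowest to -0.065 in the highest. Within the highest GC group, genes with 1 to 2, 3 to 10 and 11 or more exons had medians of 0.87, -0.01 and -0.25, and within the lowest GC group 0.16, -0.51 and -0.82. Across 5 equal groups by mean level the median went from 0.24 in the lowest to -0.79 in the highest. The share lower by 2-fold or more went from 15.4% to 35.9%, and the share higher from 27.5% to 1.86%. Within the highest level group the 3 exon groups had medians of -0.41, -0.73 and -0.92, and within the middle level group 0.54, -0.25 and -0.55. Chromosomes differed little beside this, with medians from -0.28 on chromosome 8 to -0.64 on chromosome 12 and -0.55 on the X chromosome. Genes share sequence features with each other and are not independent replicates, so these values describe the columns. No gene list below was matched for level or exon number.

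**Figure D3:**
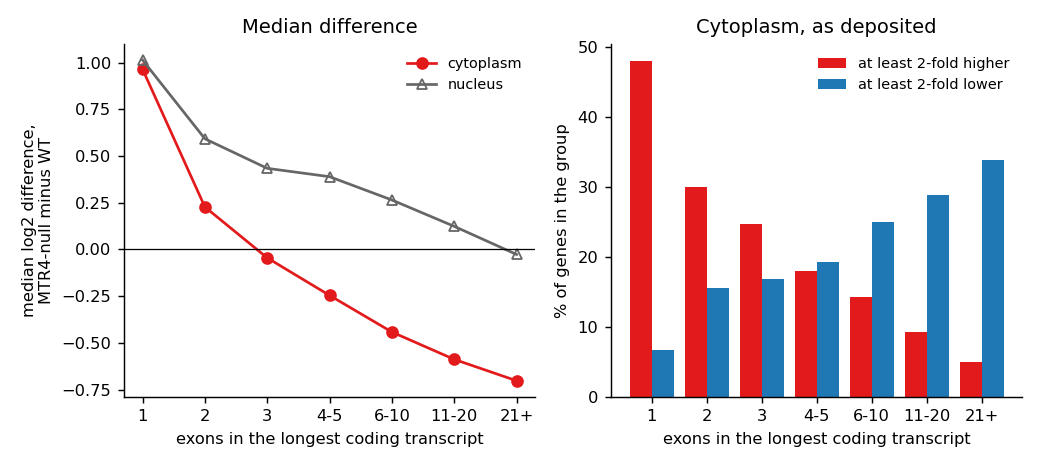
Coding genes grouped by exon number (x axis), on the left with the median log2 difference of MTR4-null minus WT in the cytoplasm (circles) and the nucleus (triangles), on the right with the percentage of genes higher by 2-fold or more (red) or lower (blue) in the cytoplasm as deposited. The cytoplasmic median goes from 0.96 to -0.70 and the share of higher genes from 48.1% to 4.96% between 1 exon and 21 or more.

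Among other genes with at least 1 FPKM in both cytoplasms, Fzd5, a receptor for Wnt proteins, stood at 1.49 FPKM in the WT cytoplasm against 109 FPKM in the MTR4-null cytoplasm, a log2 difference of 5.47, and at 2.28 and 60.9 FPKM in the nuclei. Dclre1c, which encodes the nuclease Artemis of DNA end joining, was at 2.79 and 84.0 FPKM in the cytoplasms. Nip7, a factor of ribosome assembly, was at 6.91 and 176 FPKM, Casc4 at 1.06 and 42.3 FPKM, Mocs3, an enzyme of molybdenum cofactor synthesis, at 2.15 and 58.5 FPKM, and the ubiquitin ligase subunit Asb6 at 1.39 and 35.5 FPKM. Trim8, a ubiquitin ligase, was at 1.75 and 46.9 FPKM. Of the histone genes, Hist1h3c was at 5.37 and 140 FPKM and Hist1h2bl at 1.42 and 38.9 FPKM in the cytoplasms. For these 9 genes the MTR4-null nucleus was likewise above the WT nucleus.

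Some genes were near the floor of the WT cytoplasm and well measured in MTR4-null. Churc1, a zinc-binding transcriptional regulator of early embryos, stood at 0.220 FPKM in the WT cytoplasm against 160.2 FPKM in the MTR4-null cytoplasm. Mt1, a metallothionein that binds zinc and copper, was at 0.447 and 128 FPKM, and at 2.01 and 175 FPKM in the nuclei. Its neighbour in the family, Mt2, was at 0.0739 and 0.0814 FPKM and did not reach the limit in either cytoplasm, and Mt4 was at 1.93 and 0.535 FPKM. Zc3h12a, an endonuclease that cleaves cytokine mRNAs, was at 0.252 and 65.0 FPKM, the zinc finger gene Zfp607 at 0.343 and 88.6 FPKM and Cxcr2, a chemokine receptor, at 0.111 and 43.2 FPKM. Ccdc48 was at 0.0102 and 47.8 FPKM. The pseudogenes Rplp2-ps1 and Vmn2r-ps129 had 0.000403 and 0.622 FPKM in the WT cytoplasm and 73.2 and 47.8 FPKM in the MTR4-null cytoplasm. The WT nucleus held all 8 of these genes at a higher FPKM than the WT cytoplasm, for example 16.7 FPKM for Churc1 and 15.3 FPKM for Cxcr2.

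At the lower end, the histone gene Hist2h2ac stood at 112 FPKM in the WT cytoplasm against 5.14 FPKM in the MTR4-null cytoplasm, opposite to Hist1h3c and Hist1h2bl. Ccdc109b, a subunit of the mitochondrial calcium uniporter, was at 80.8 and 5.21 FPKM. Egfr, the receptor of epidermal growth factor, was at 23.7 and 2.15 FPKM and the RNA-binding protein gene Bicc1 at 18.9 and 1.35 FPKM. Bcat2, a mitochondrial enzyme that breaks down branched-chain amino acids, was at 25.3 and 1.32 FPKM in the cytoplasms but at 3.23 and 8.999 FPKM in the nuclei. The others were Oas1f (29.9 and 2.36 FPKM), H2-Aa (23.1 and 1.63), Slc12a8 (20.5 and 1.39), Snph (28.6 and 2.70), Rbm44, an RNA-binding protein of germ cells (19.1 and 1.70), and Trim15 (35.1 and 3.88). Of the genes under 1 FPKM in MTR4-null, Btn1a1, a butyrophilin of milk fat, had 28.0 and 0.313 FPKM, the kinase genes Stk32a and Dclk1 25.2 and 0.579 and 12.02 and 0.116 FPKM, Dydc2 21.3 and 0.439 FPKM, Bfsp1 21.9 and 0.711 FPKM and Tac2, a tachykinin precursor, 13.2 and 0.991 FPKM. Dcpp2 had 13.1 and 0.402 FPKM and Ccdc147 7.94 and 0.241 FPKM. Bfsp1 was at 0 in the WT nucleus, whereas the others of this group had 10.1 FPKM (Ccdc147) or more there.

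**Figure D4:**
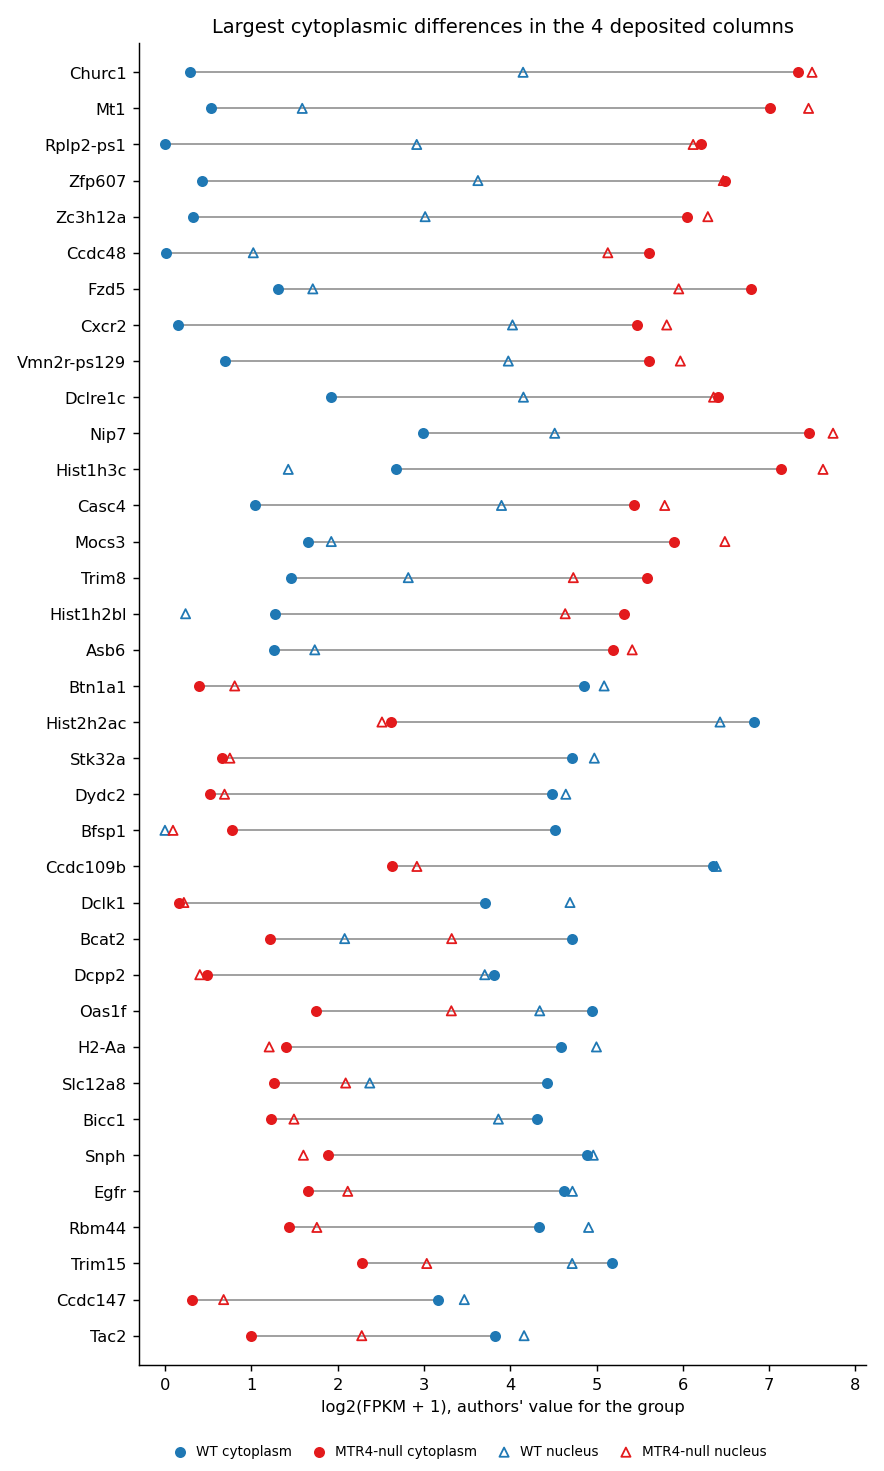
Levels on the log2(FPKM + 1) scale (x axis) of the genes with the largest cytoplasmic differences, apart from the structured RNAs, with circles for cytoplasm, triangles for nucleus, blue for WT and red for MTR4-null. The MTR4-null nucleus lies within 1 unit of the MTR4-null cytoplasm in every row but those of Bcat2, Oas1f and Tac2, where it is higher.

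The highest mRNAs of the WT cytoplasm had lower values in MTR4-null by differing amounts. Zbed3, a component of the maternal complex under the oocyte membrane, stood at 4228 FPKM in the WT cytoplasm against 2599.6 FPKM in the MTR4-null cytoplasm, and the ubiquitin hydrolase Uchl1 at 2241 and 1274 FPKM. Tlcd2 was at 2992 and 694 FPKM and C86187 at 1973 and 651 FPKM. Of 17 oocyte markers all were measured in the cytoplasm, with summed levels of 12997 FPKM in WT against 7803 FPKM in MTR4-null. As deposited 7 were lower by 2-fold or more and 1 higher, with a median of -0.94, and centred 1 was lower and 1 higher, with a median of -0.54. In the highest level group of coding genes 35.9% were lower as deposited, with a median of -0.79. The egg coat genes Zp2 (1015 and 1020.3 FPKM) and Zp3 (1471 and 1540.1 FPKM) were nearly level in both cytoplasms, while Npm2, a histone chaperone of the egg, was at 943 and 306 FPKM and the growth factor genes Gdf9 and Bmp15 at 2677 and 1304 and at 1064 and 477 FPKM. Of 22 granulosa cell markers 16 were measured, 0 of them higher by 2-fold or more and 4 lower as deposited. The share of lower markers was near the 24.3% of all genes kept. Centred, 1 was higher and 3 lower. The summed levels of all 22 were 137 FPKM in WT against 72.3 FPKM in MTR4-null. Most of that difference lay in Mki67, Top2a and Esr2. The receptor genes Fshr and Amhr2 were at 0.208 and 0.139 and at 0.660 and 1.01 FPKM and Foxl2 at 1.81 and 4.59 FPKM, whereas the hormone subunit gene Inha was at 15.1 and 14.3 FPKM, Esr2 at 21.6 and 10.99 FPKM and the proliferation genes Mki67 and Top2a at 38.9 and 9.42 and at 23.6 and 8.77 FPKM. Of 16 markers of blood, endothelium and stroma 3 were measured (Pecam1, Kdr and Col3a1), with summed levels of 24.8 and 11.2 FPKM, and Cdh5, Lyz2 and Emr1 were listed at 0 in WT and Hba-a1 and Hbb-b1 at 0 in MTR4-null. Mitochondrial Lars2 was at 436 and 3039 FPKM in the cytoplasms and the ribosomal RNA precursor Rn45s at 1016 and 180.5 FPKM, both after depletion of ribosomal RNA, and the part of that step in these values was not tested.

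Of 27 genes of pyruvate oxidation and the tricarboxylic acid (TCA) cycle 11 were lower by 2-fold or more and 0 higher as deposited, with a median log2 difference of -0.87. After centring 5 were lower and 1 higher, with a median of -0.47. In the next-highest and highest level groups of coding genes, 30.4% and 35.9% were lower as deposited, with medians of -0.64 and -0.79. Whether the list differs from genes of like level was not tested. Fumarase, Fh1, stood at 56.1 FPKM in the WT cytoplasm against 13.5 FPKM in the MTR4-null cytoplasm. The mitochondrial pyruvate carrier subunit listed as Brp44l was at 20.2 and 5.19 FPKM, the succinyl-CoA ligase subunit Sucla2 at 45.9 and 13.4 FPKM, and Dld, a subunit shared by the pyruvate and oxoglutarate dehydrogenases, at 70.6 and 22.3 FPKM. Oxoglutarate dehydrogenase itself, Ogdh, stood the other way at 24.2 and 40.0 FPKM, and Mdh2 was level at 67.6 and 68.8 FPKM. Glycolysis, of which 14 of 16 genes were measured, had 4 lower and 0 higher as deposited, a share near the 24.3% lower among all genes kept, and 3 lower and 1 higher centred. Pgk1 was at 23.4 and 5.05 FPKM and Gpi1 at 56.4 and 19.7 FPKM, whereas Ldhb, which encodes the lactate dehydrogenase subunit that dominates in oocytes, was at 2829 and 1612 FPKM and Gapdh at 26.7 and 27.1 FPKM.

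Genes of mitochondrial import, dynamics and genome upkeep went both ways, with neither share as deposited above that of all genes kept. Of 35 genes 4 were higher by 2-fold or more and 7 lower as deposited, and 5 higher and 5 lower centred. The all-gene shares were 17.0% higher and 24.3% lower as deposited, and 23.9% and 10.9% centred. The lower ones held the fission genes Fis1 (21.1 and 5.28 FPKM) and Dnm1l (49.0 and 16.1 FPKM), the fusion gene Opa1 (17.7 and 7.01 FPKM) and the inner membrane translocase subunits Timm17a (176 and 60.3 FPKM) and Timm44 (31.5 and 10.8 FPKM). The higher ones were the import subunits Tomm5 (0.111 and 12.3 FPKM), Timm22 (0.138 and 4.61 FPKM) and Tomm20 (2.31 and 6.21 FPKM) and the protease subunit Clpp (5.33 and 13.1 FPKM). Fis1 was at 9.07 and 40.5 FPKM in the nuclei, past 2-fold in the direction opposite to its cytoplasmic difference.

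In the glutathione and redox list 5 of the 6 peroxiredoxins, which break down peroxides, were lower by 2-fold or more as deposited. Prdx1 stood at 239 FPKM in the WT cytoplasm against 85.5 FPKM in MTR4-null, Prdx2 at 511 and 176 FPKM, Prdx3 at 20.9 and 6.34 FPKM, Prdx4 at 4.47 and 0.667 FPKM and Prdx6 at 4.15 and 1.51 FPKM. Prdx5 was at 43.0 and 23.6 FPKM. G6pdx, the entry enzyme of the pentose phosphate pathway, was at 260.0 and 104 FPKM, while Pgd of the same pathway was at 9.64 and 26.5 FPKM, the single member higher by 2-fold or more. Of the 27 measured genes 7 were lower and 1 higher as deposited, with a median of -0.43. The share of lower genes and the median were near those of all genes kept, 24.3% and -0.39. Centred, 4 were lower and 3 higher. Cholesterol and fatty acid synthesis had 6 lower and 3 higher of 28 as deposited, again near the all-gene share of lower genes. Centred, 2 were lower and 4 higher. Fdft1, squalene synthase, was at 187 and 53.2 FPKM, Nsdhl at 16.4 and 3.64 FPKM and Insig1, which holds back the sterol sensor, at 177 and 83.6 FPKM, whereas Pmvk was at 0.888 and 7.03 FPKM.

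Genes of nucleotide synthesis went both ways. Of 26 genes 5 were higher by 2-fold or more and 7 lower as deposited, and 6 higher and 3 lower centred. These shares were near those of all genes kept, 17.0% higher and 24.3% lower as deposited, and 23.9% and 10.9% centred. Mthfd1, of folate metabolism, was at 48.7 and 11.9 FPKM, CTP synthase Ctps at 141 and 49.4 FPKM and thymidylate synthase Tyms at 16.1 and 5.47 FPKM. Impdh2, of guanine nucleotide synthesis, was at 4.32 and 22.4 FPKM, the purine enzyme Gart at 2.21 and 9.58 FPKM and Aprt at 6.45 and 19.6 FPKM. DNA replication had 12 of 41 genes lower by 2-fold or more and 0 higher as deposited, and 6 lower and 1 higher centred, with a centred median of -0.31. The polymerase subunit Pola1 was at 18.2 and 3.73 FPKM and the clamp loader Rfc1 at 29.1 and 8.20 FPKM. In the helicase ring Mcm2, Mcm4, Mcm5 and Mcm6 were each lower by 2-fold or more, at 64.1 and 27.9, 67.0 and 23.1, 62.8 and 21.4, and 56.8 and 20.2 FPKM, while Mcm3 (30.0 and 18.1 FPKM) and Mcm7 (43.5 and 35.7 FPKM) were not.

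The list of genes that charge tRNAs in the cytosol holds synthetases and the scaffold genes Aimp1, Aimp2 and Eef1e1. Of its 23 members 6 were lower by 2-fold or more and 1 higher as deposited, a share near the 24.3% of all genes kept that were lower, with a median of -0.82, and 3 lower and 1 higher centred, with a median of -0.43. Cars was at 17.9 and 3.97 FPKM, Iars at 70.4 and 24.96 FPKM and Qars at 137 and 49.3 FPKM, and the exception was Yars at 0.299 and 4.23 FPKM. Protein entry into the endoplasmic reticulum stood near the middle of all genes, with 2 higher and 5 lower of 30 as deposited and 3 higher and 1 lower centred. The signal peptidase subunits went both ways, Spcs1 at 50.9 and 13.1 FPKM and Spcs3 at 3.63 and 22.02 FPKM. Of the pore itself, Sec61a1 was at 59.1 and 24.6 FPKM and Sec61g at 67.2 and 53.4 FPKM. Coat and Golgi genes had 3 higher and 7 lower of 42 as deposited and 6 higher and 2 lower centred. Gorasp2, a stacking protein of the Golgi, was at 113 and 35.9 FPKM and the coat subunit Copz1 at 80.1 and 29.8 FPKM. The small GTPases Arf2 (3.03 and 13.7 FPKM) and Arf4 (5.34 and 18.8 FPKM) were higher, while Arf1 was at 223 and 127 FPKM and Arf6 at 41.1 and 39.9 FPKM.

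Of 35 measured lysosomal genes 3 were higher by 2-fold or more and 5 lower as deposited, and 5 higher and 4 lower centred. Subunits of the proton pump that acidifies the lysosome ranged from Atp6v0d1 at 58.0 and 15.5 FPKM and Atp6v1e1 at 117 and 43.9 FPKM to Atp6v0c at 71.8 and 85.1 FPKM. The protease Ctsh was at 90.0 and 29.5 FPKM and Ctsl at 2.19 and 6.10 FPKM. Tfeb, the transcription factor that drives lysosomal genes, was at 0.0495 and 2.40 FPKM. Of 33 autophagy genes 9 were lower and 3 higher as deposited, with a median of -0.67, and 2 lower and 5 higher centred. The share lower as deposited was near the 24.3% of all genes kept. Atg5, of the conjugation system, was at 114 and 34.9 FPKM, its partner Atg12 at 66.0 and 27.9 FPKM, the scaffold Rb1cc1 at 22.1 and 8.22 FPKM and Map1lc3b at 24.5 and 9.99 FPKM. The cargo receptor Sqstm1 stood opposite at 14.8 and 33.9 FPKM and the protease Atg4d at 0.0634 and 4.56 FPKM.

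Motors and nucleators of the cytoskeleton, which move the spindle and organelles of the oocyte, had 11 lower and 0 higher of 35 as deposited. Their median was -0.78. Centred, 2 were lower and 1 higher. Over all genes kept, 24.3% were lower as deposited and 10.9% lower centred, so the centred share of lower members was under that of all genes. Kif23, a kinesin of cell division, stood at 198 FPKM in the WT cytoplasm against 34.8 FPKM in the MTR4-null cytoplasm, the largest difference of the list at -2.48. The actin nucleators Spire1 and Fmn2, which act together in spindle positioning, were at 61.5 and 16.9 and at 46.0 and 19.1 FPKM, and the related Spire2 at 9.47 and 12.9 FPKM. The myosins Myo5a and Myo5b were at 11.9 and 4.15 and at 138 and 56.5 FPKM. Calcium stores and egg activation had 7 lower and 3 higher of 23 as deposited, and 2 lower and 3 higher centred. The sperm receptor Juno, listed as Folr4, was at 191 and 54.3 FPKM, the calcium channel of the stores Itpr1 at 39.8 and 17.4 FPKM, the kinase gene Camk2g at 116 and 41.0 FPKM and the meiotic kinase Wee2 at 204 and 94.5 FPKM. Of the store sensors, Stim1 was at 1.40 and 11.9 FPKM and Stim2 at 16.3 and 7.52 FPKM, in opposite directions.

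**Figure D5:**
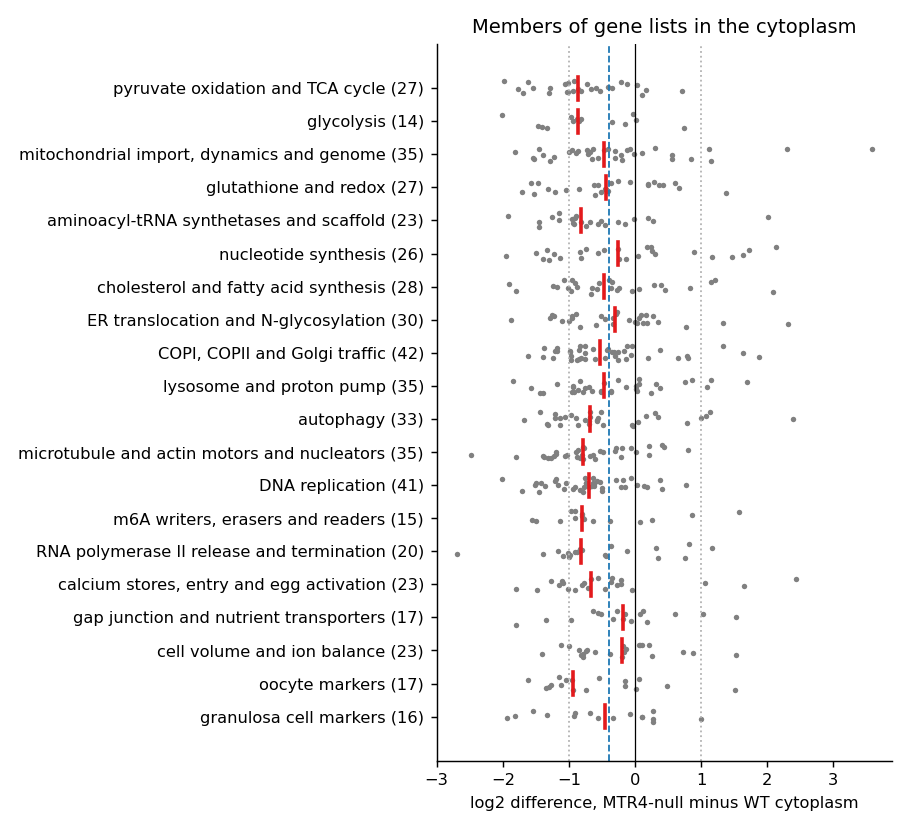
Each grey point is a measured gene of the list named on the left (number measured in brackets), placed by its log2 difference of MTR4-null minus WT cytoplasm (x axis), with the list's median as a red bar, the median of all 12548 genes (-0.39) as a dashed blue line and 2-fold differences as dotted lines. As deposited, the medians of these 20 lists all lie under 0, from -0.94 for oocyte markers to -0.18 for gap junction and nutrient transporters, and fall on both sides of the all-gene median.

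Genes that release and finish RNA polymerase II transcripts, among them partners of MTR4, had 5 lower and 1 higher of 20 as deposited. The share of lower genes was near the 24.3% of all genes kept. Centred, 2 were lower and 3 higher. The count of lower genes includes Skiv2l2 itself. Zcchc8 and Rbm7, which join MTR4 in the nuclear exosome targeting complex, were at 101 and 54.5 and at 70.9 and 37.3 FPKM, and Zfc3h1, of the complex that targets polyadenylated RNA, at 11.1 and 14.0 FPKM. Zcchc7 and the poly(A) polymerase Papd5, of the complex that adds short tails to exosome substrates, were at 14.7 and 6.75 and at 41.5 and 18.0 FPKM. Of the cap-binding subunits, Ncbp1 was at 2.70 and 7.26 FPKM and Ncbp2 at 28.9 and 22.2 FPKM. The m6A list, for a methyl mark on mRNA, had 3 lower and 1 higher of 15 as deposited and 2 and 2 centred. The reader Igf2bp2 was at 197 and 66.4 FPKM, the reader Ythdf3 at 59.5 and 26.4 FPKM, the methyltransferase Mettl3 at 21.4 and 11.8 FPKM and the writer subunit Rbm15 at 26.9 and 82.3 FPKM.

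Genes of cell volume and ion balance, a theme of the study's title, stood close to the middle of all genes. Of 28 genes 23 were measured, 1 higher by 2-fold or more and 3 lower as deposited with a median of -0.19, and 3 higher and 1 lower centred with a median of 0.20. Slc6a9, the glycine transporter that takes up osmolyte in early embryos, was at 208 and 120.1 FPKM in the cytoplasms. The chloride cotransporters Slc12a2 and Slc12a7 were at 15.2 and 15.8 and at 21.1 and 25.5 FPKM. The volume-regulated anion channel subunits Lrrc8a, Lrrc8b, Lrrc8d and Lrrc8e were at 30.9 and 27.5, 72.5 and 42.8, 34.0 and 35.7, and 35.1 and 22.7 FPKM, each within 2-fold. Slc5a3, which imports the osmolyte inositol, was the member higher by 2-fold or more, at 0.760 and 4.06 FPKM. The kinases upstream of the cotransporters were Wnk1 at 105 and 57.4 FPKM and Oxsr1 at 3.32 and 6.16 FPKM.

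The list of gap junction and nutrient transporters, which also holds the mitochondrial carriers Slc25a3 and Slc25a5, had few members past 2-fold. Of 17 measured genes 2 were higher by 2-fold or more and 2 lower as deposited, and 3 higher and 1 lower centred, with a centred median of 0.22. The oocyte gap junction subunit Gja4 was at 433 FPKM in WT against 219.5 FPKM in MTR4-null, and Gjc1 at 1.49 and 6.17 FPKM. The cystine transporter Slc7a11 was at 47.1 and 12.8 FPKM and the arginine and lysine transporter Slc7a1 at 12.2 and 4.20 FPKM, while Slc3a2 (44.7 and 42.9 FPKM), Slc7a5 (23.6 and 24.9 FPKM) and the pyruvate and lactate transporter Slc16a1 (23.3 and 25.4 FPKM) were nearly level.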

How the data were processed

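The deposited table gives FPKM per gene symbol in 4 columns, 1 for each genotype and compartment. Per the submitters' processing notes, TopHat2 2.1.1, Cufflinks 2.2.1 and the build mm9 were used. Their settings, and how the authors combined libraries into a deposited FPKM column, are not given in the sources used here. The last row, which has no gene name and equals the column sum, was left out. No count, depth or library value was used, so no test, SD or interval could be computed, and the planned tests across libraries were not run.

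Genes at 1 FPKM or more in either cytoplasm were kept. Differences are log2(FPKM + 1), with a pseudocount of 1, as deposited and centred on the median of the genes kept, and "at least 2-fold" refers to that scale. Exons, GC and span came from GENCODE M21 (GRCm38), matched by symbol for 12378 genes, and biotypes from RefSeq for 12447. Counting was tested on simulated columns. The 23 gene lists and the genes to compare were chosen with earlier results of these data known.

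Apart from gene models and small RNAs, the rule for named genes took the 12 largest differences in each direction at 10 FPKM in the higher and 1 FPKM in the lower column, and the 8 largest at 5 FPKM in the higher column and under 1 in the lower. It also took the 8 highest values of each column, the 4 largest differences in each direction among small RNAs and among gene models, and up to 5 members of each list, or every member of short lists and of the cell volume list. Other genes, such as Mt2, Mir678, Snord71, Lars2, Rn45s and list members named beside them, were chosen after their values were seen. Of the genes the rule took, 5 are not reported here. Python 3.11.15, pandas 2.3.3, numpy 2.4.6, matplotlib 3.10.9 and biopython 1.88 were used, the last for the alignment of Rpph1 and Rprl3. Another pseudocount, other level limits, other centring and a rescaling without small RNAs were tried.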

Additional observations from a re-analysis of the deposited data

Results flagged for a closer look

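For 14 of the genes named, the cytoplasm and the nucleus differed by at least 2-fold in opposite directions. Over all 12548 genes kept, 105 were higher in the cytoplasm and lower in the nucleus, and 71 the other way. Many of the genes named were chosen for a large cytoplasmic difference. The difference between the compartments was not tested, since each group has 1 deposited value. Higher in the MTR4-null cytoplasm and lower in the MTR4-null nucleus were Scarna17 (log2 difference 12.41 in the cytoplasm and -2.65 in the nucleus, the first set by the pseudocount because the WT cytoplasm is listed at 0), Snora78 (7.22 and -1.54), Snord22 (7.07 and -1.56), Scarna6 (7.06 and -1.39), Mir1940 (6.62 and -1.03), Scarna13 (5.77 and -2.46) and Mir1901 (3.22 and -3.88). The same held for Lars2 (2.80 and -1.08), Kcnq1ot1 (1.46 and -1.23) and Snhg11 (1.14 and -2.43). The opposite was found for Mir22 (-5.86 in the cytoplasm and 4.20 in the nucleus), Bcat2 (-3.50 and 1.24), Fis1 (-1.82 and 2.04) and Rdbp (-1.08 and 1.36), which encodes a subunit of the complex that pauses RNA polymerase II.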

How the results depend on the processing

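No paired analysis was possible because the deposited columns hold 1 value per group, and leaving out libraries could not be run for the same reason. As deposited with a pseudocount of 1, 2135 genes were at least 2-fold higher and 3047 lower, and the median was -0.39. With a pseudocount of 5 these values were 869, 1671 and -0.25. At 1 FPKM or more in both columns 1023 genes were higher, and at 5 FPKM in either column 1305 were higher with a median of -0.55, since fewer genes were counted. With every gene above 0 the median was -0.061. Centring on the genes kept left 1369 lower with a median of 0, centring on genes at 1 FPKM in both columns 1084 lower with a median of 0.090, and leaving out small RNAs and rescaling 1270 lower with a median of 0.060. Of 264 genes named or taken by the naming rule 198 were past 2-fold. These centrings took 41 and 57 of them below 2-fold, the rescaling 55 of 175, and a pseudocount of 5 took 35. Signs changed for 14, 14 and 12 of these genes and for 5, 10 and 6 list medians under the 2 centrings and the rescaling. With every gene above 0 the median of blood, endothelial and stromal markers was 0.071 and no longer below 0, over more genes. Depth is unknown, so values near the limit and zeros cannot be told from sampling.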
